A study of Mus musculus with 8 samples.

Results

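These 7 genes encode surface proteins used to sort carcinoma cells with stem cell properties: Cd34, Prom1, Cd44, Cd24a, Epcam, Ly6a and Cd200. They were chosen by name, and every probe that the array files name for one of them was used. This gave 7 of the 30139 genes and 12 of the 39429 probes on the array. Cd44 has 4 probes, Cd34 and Prom1 have 2 each, and the other 4 genes have 1 each. Where a gene has several probes, the brightest over all arrays stands for it.

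The cells are mSCC-20, a line from a cutaneous squamous cell carcinoma of a mouse of the FVB/N strain. The cells of every group were transfected, either with the control microRNA miR_NC (NC, 4 arrays), with miR_193b (2 arrays) or with miR_365a (2 arrays), and total RNA was labelled with Cy3. The labels give each sample an amount of 0.2 or 0.6 µg, whose meaning they do not state, and an RNA integrity number of 10. The 0.2 set holds NC replicates 1 and 2 and both miR-193b arrays, and the 0.6 set holds NC replicates 3 and 4 and both miR-365a arrays. All RNA is from 1 line, and the labels do not say that replicates were separate cultures, so any p value reflects the scatter of these arrays alone. Replicate numbers were given in accession order and pair no samples.

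The proteins serve as handles rather than as one pathway. CD34 is a sialomucin that marks stem cells of the hair follicle bulge and, in mouse skin carcinomas, cells that can start a new tumour after transplantation. Prominin-1, the product of Prom1, is a cholesterol-binding protein of membrane protrusions, CD44 is the main receptor for the matrix sugar hyaluronan, and CD24 is a small mucin-like adhesion protein. EpCAM is an epithelial adhesion molecule, Ly6a encodes the lipid-anchored protein Sca-1, and CD200 is an immunoglobulin family ligand that also marks bulge cells. MicroRNAs lower messenger RNAs that pair with their seed, the bases near the 5′ end.

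The mature microRNAs are shown because their seeds differ and define the letters searched for in the probes. Sequences are those of RefSeq on build GRCm38.p6, 5′ to 3′, with the seed (bases 2 to 8) in capitals.
mmu-miR-193b-3p: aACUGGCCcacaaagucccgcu
mmu-miR-365-3p: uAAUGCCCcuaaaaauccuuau
The genes Mir193b (chr16:13449570-13449591) and Mir365-1 (chr16:13453895-13453916) lie beside each other on the plus strand of chromosome 16, and Mir365-2 on chromosome 11 gives the same mature miR-365. The perfect seed matches, GGCCAGT for miR-193b and GGGCATT for miR-365a, were searched for on the probes' own strand. Of all 39429 probes, 0.294% held the first and 0.312% the second, and 0 of the 12 probes of the surface markers held either. The search covers the probe letters only and not the rest of each transcript.

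The probe sequences below show which stretches of the transcripts were read where a gene has several probes or where the result turns on 1 probe. Each is 60 bases long, except that the first 30 bases of the third Cd44 probe are given, with mm9 coordinates as the array files give them. The Cd44 probes are numbered along the transcript, on the minus strand of chromosome 2.
Cd44 probe 1 (chr2:102677971-102678030): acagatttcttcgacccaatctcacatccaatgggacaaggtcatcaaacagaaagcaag
Cd44 probe 2 (chr2:102672645-102672704): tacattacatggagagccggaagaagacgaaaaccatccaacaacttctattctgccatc
Cd44 probe 3, first 30 bases (chr2:102654278-102654337 for the whole probe): gacgagacccggaatctgcagagtgtggac
Cd34 upstream probe (chr1:196785280-196785339, plus strand): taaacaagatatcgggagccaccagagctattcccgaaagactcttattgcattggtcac
Prom1 upstream probe (chr5:44397410-44397469, minus strand): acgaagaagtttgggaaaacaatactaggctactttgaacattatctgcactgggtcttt
Epcam probe (chr17:88048972-88049800, plus strand): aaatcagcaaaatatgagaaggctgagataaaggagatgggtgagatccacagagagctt
The Epcam coordinates span more bases of the genome than the probe is long. Cd44 probe 4 lies at chr2:102651398-102651457. The downstream probe of Cd34 lies at chr1:196787392-196787451, 2112 bases past its upstream probe, and that of Prom1 at chr5:44384861-44384920, 12549 bases past its upstream probe. The polyadenylation signal AATAAA, searched on the probes' own strand, was found in 2 of the 12 probes, the downstream probes of Cd34 (from base 35) and of Prom1 (from base 40), and in 12.6% of all probes. Ly6a has 1 probe at chr15:74825553-74825612, Cd24a 1 at chr10:43303706-43303765 and Cd200 1 at chr16:45382387-45382446. No exon, intron or UTR was assigned to the probes.

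Values are the log2 processed signal of a probe less its array's 75th percentile, so 0 is a bright probe, and levels of different probes were not compared. A gene was called at a limma adjusted p under 0.05. Each array has 43020 gene spots, and the share well above background was 51.4% to 54.6% for arrays of the 0.2 set, against 58.9% to 62.1% for the others. The arrays show epithelial RNA, with 10 of 10 keratinocyte markers well above background on all 8 arrays. Among markers of other cell types, 3 of 8 endothelial, 4 of 8 leukocyte, 1 of 7 fibroblast and 1 of 5 melanocyte genes were well above background on all 8. Those so on 0 arrays included Cdh5, Tek and Emcn of endothelium, Lyz2 of leukocytes, Col3a1, Dcn and Lum of fibroblasts, and Dct and Tyrp1 of melanocytes. Of the surface marker genes, Cd34, Cd44, Cd24a, Ly6a and Epcam were well above background on all 8 arrays, Prom1 only on the 2 NC arrays of the 0.6 set, and Cd200 on 0. The 6 genes other than Cd200 were tested.

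**Figure D1:**
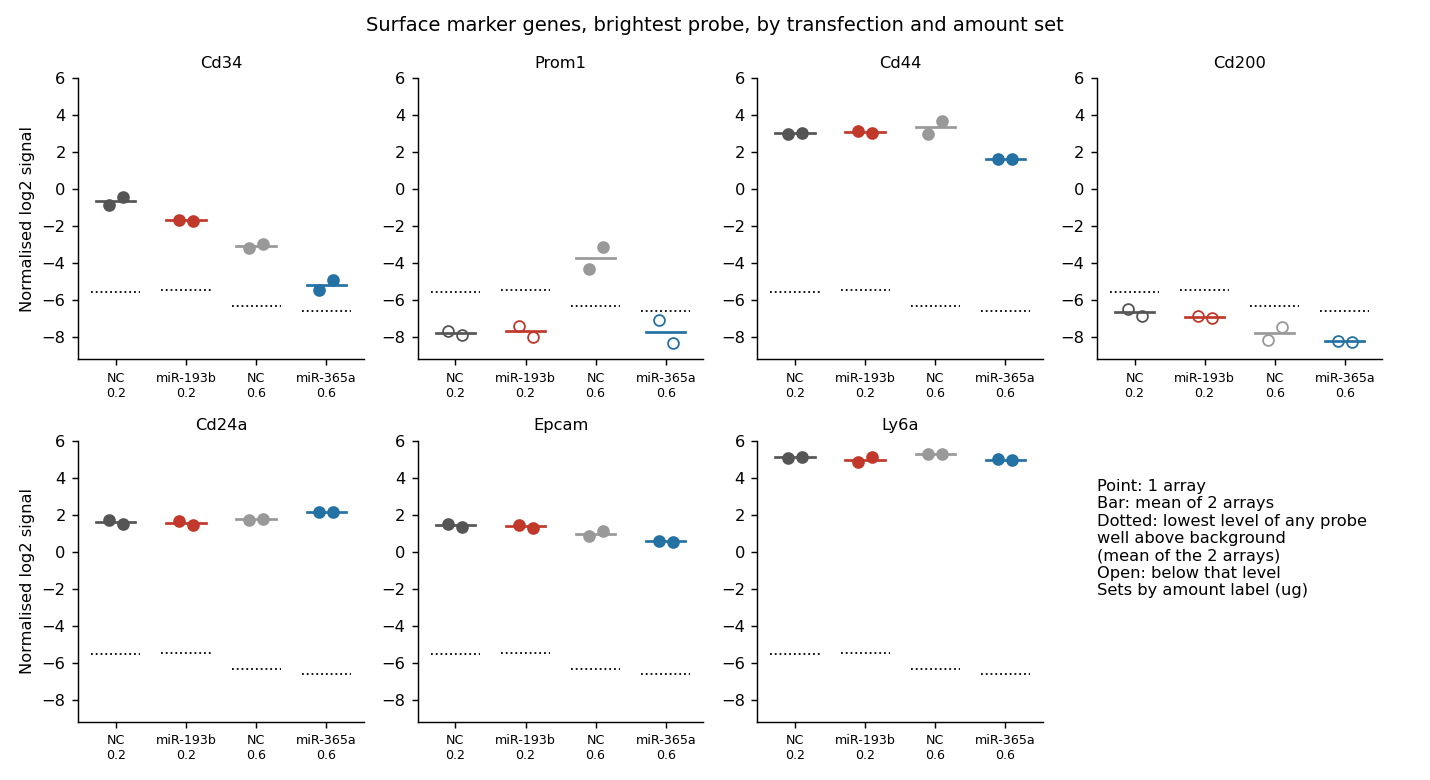
Normalised log2 signal of the brightest probe of each of the 7 surface marker genes on each of the 8 arrays, by transfection and amount set (in µg). Points are arrays, bars are means of 2 arrays, dotted lines are the background limit (the least signal among probes well above background), and open points lie under it. Cd34 spans -0.41 on an NC array of the 0.2 set to -5.45 on a miR-365a array, Prom1 is above the dotted line only in the NC arrays of the 0.6 set, and Ly6a stays between 4.89 and 5.31.

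The first question was what miR-365a did to these genes. Cd34, Cd44 and Prom1 were lower, and Cd24a, Epcam and Ly6a did not pass the test. The 3 calls are out of 6 genes tested, where 8.05% of all 17849 genes tested were called lower and 7.84% higher. Prom1 was tested only because it was well above background in the NC arrays of this set, so it could be seen here only as a fall, and the 3 of 6 is a description.

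Cd34 was at -3.20 and -2.97 on the NC arrays of the 0.6 set and at -5.45 and -4.90 on the miR-365a arrays. The miR-365a arrays were the lowest of all 8 for Cd34. The level was 4.25-fold lower (log2 difference -2.09 ± 0.23, SE, n = 2 and 2, 95% interval -2.64 to -1.53, limma adjusted p = 0.00497). The call held under every alternative run, with a smaller difference of -1.28 after normexp background correction and -1.17 in the deposited log2 values (adjusted p from 0.00109 to 0.0331 over all alternatives). All of this is from the downstream probe. The upstream probe was not well above background on any array, at -8.26 to -6.78.

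Prom1 was at -4.35 and -3.11 on the NC arrays of the 0.6 set, and well above background on both. On the miR-365a arrays it was at -7.11 and -8.32, not well above background. Set against the least signal among probes well above background, taken on the miR-365a arrays, it was at least 7.26-fold lower than the NC mean, and at least 4.72-fold lower than the lower NC array (limma adjusted p = 0.00783, 0.00267 to 0.0446 over all alternatives). These bounds hold for the processed signal only. The log2 difference was -1.49 after normexp background correction and -1.25 in the deposited log2 values, both smaller than the bounds. The mean of the NC arrays was -3.73 ± 0.88 (SD, n = 2), and the measured mean of the miR-365a arrays was -7.71 ± 0.85 (SD, n = 2). As with Cd34, the signal came from the downstream probe, and the upstream probe of Prom1 was well above background on 0 arrays. Unlike those of Cd34, the 2 Prom1 probes are annotated to different reference transcripts, so they may not read the same one.

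**Figure D2:**
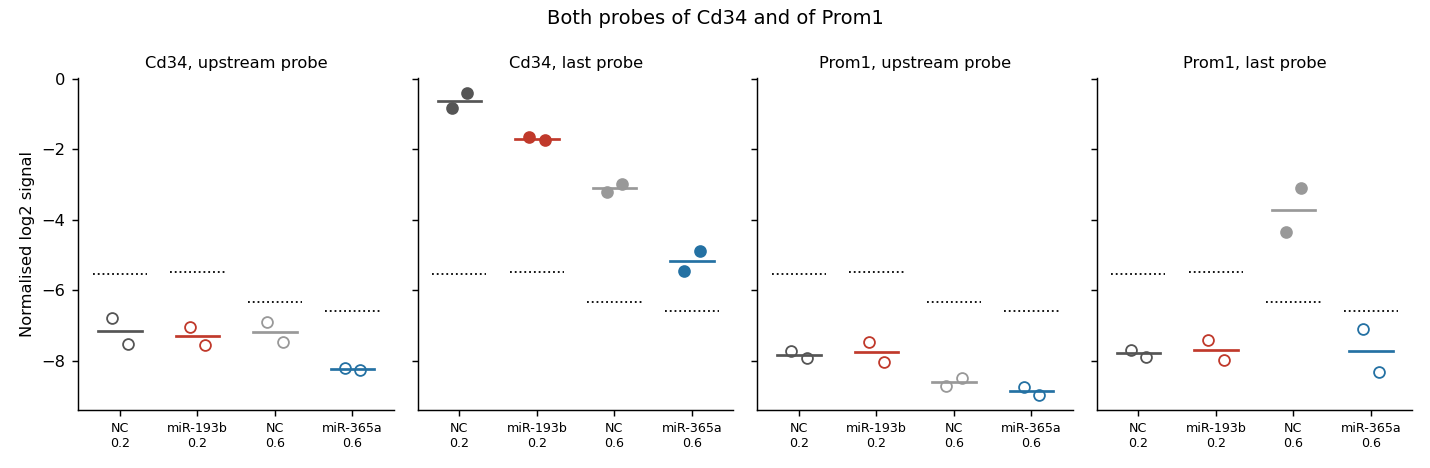
Normalised log2 signal of both probes of Cd34 and of Prom1 on the 8 arrays, with symbols as in the plot of all surface marker genes. The upstream probes lie under the dotted line (the background limit) on every array, while the downstream probe of Cd34 lies above it on all 8 and that of Prom1 on the 2 NC arrays of the 0.6 set.

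Cd44, at its brightest probe (probe 4), was at 2.98 and 3.72 on the NC arrays of the 0.6 set and at 1.65 and 1.62 on the miR-365a arrays. The miR-365a arrays were the lowest of all 8, while NC replicate 4 stood above the other NC arrays, which lay between 2.98 and 3.06. The level was 3.28-fold lower (log2 difference -1.71 ± 0.23, SE, n = 2 and 2, 95% interval -2.28 to -1.15, limma adjusted p = 0.00834). Without NC replicate 4 the difference was -1.34 (adjusted p = 0.0243), and without NC replicate 3 it was -2.08 (adjusted p = 0.0227). The call was lost without miR-365a replicate 1 (adjusted p = 0.0539) or replicate 2 (adjusted p = 0.0567), and adjusted p ran from 0.00161 to 0.222 across the alternatives and the other probes.

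The fitted difference after miR-365a was below 0 at all 4 Cd44 probes. The 95% intervals included 0 at probe 1 (-1.14 to 0.09) and probe 2 (-1.54 to 0.04). Probe 4 is the last along the transcript, and probes 3, 2 and 1 lie 2880, 21247 and 26573 bases of genome before it. After miR-365a the log2 difference was -0.53 ± 0.26 at probe 1 (SE, n = 2 and 2, limma adjusted p = 0.222) and -0.75 ± 0.33 at probe 2 (adjusted p = 0.180). It was -1.02 ± 0.22 at probe 3 (adjusted p = 0.0292) and -1.71 ± 0.23 at probe 4 (adjusted p = 0.00861 among all probes). So 2 of 4 probes were called lower, where 8.04% of the 23274 probes tested were.

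On each array the other probes were also set against probe 4. Probe 3 less probe 4 was -0.36 and -0.58 on the NC arrays of the 0.6 set and 0.17 and 0.26 on the miR-365a arrays. In the 0.2 set it was 0.17 and -0.10 on NC and 0.26 and -0.04 on miR-193b. The value was thus higher after miR-365a than on the NC arrays of its set, yet within the range of the 0.2 set. Probe 1 less probe 4 was -4.39 and -4.55 on the NC arrays of the 0.6 set, and -3.28 and -3.29 on the miR-365a arrays, the highest of all 8. For probe 2 less probe 4 the values were -4.67 and -4.64 against -3.77 and -3.60. The probes therefore did not keep a fixed ratio between these arrays. The difference between probes was not tested.

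**Figure D3:**
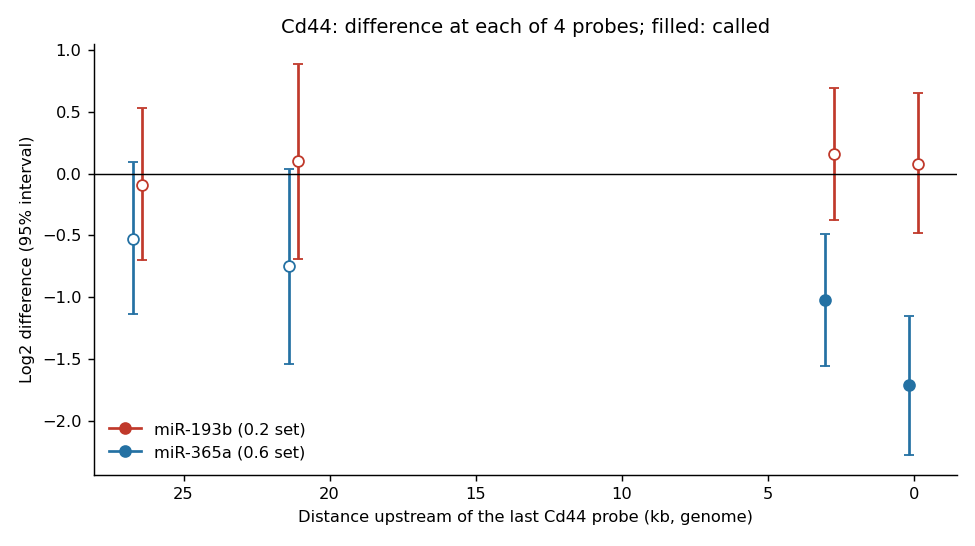
Log2 difference from the NC arrays of the same set at each of the 4 Cd44 probes, by distance upstream of the last probe in kb of genome, for miR-193b (0.2 set) and miR-365a (0.6 set). Bars are 95% intervals of the fit with 2 arrays per group, and filled points were called. After miR-365a the difference runs from -0.53 at the most upstream probe to -1.71 at the last, and after miR-193b all 4 intervals include 0.

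The other 3 genes were not called. Cd24a was at 1.71 and 1.80 on the NC arrays of the 0.6 set and at 2.17 and 2.18 on the miR-365a arrays. Its log2 difference was 0.42 ± 0.14 (SE, n = 2 and 2, 95% interval 0.08 to 0.76, limma adjusted p = 0.0975). Epcam was at 0.85 and 1.11 on NC and at 0.58 and 0.56 after miR-365a, with a log2 difference of -0.41 ± 0.14 (95% interval -0.74 to -0.08, adjusted p = 0.0922). Ly6a was at 5.31 and 5.30 on NC and at 5.01 and 5.0 after miR-365a, a log2 difference of -0.30 ± 0.12 (95% interval -0.59 to -0.0041, adjusted p = 0.155). None of these 3 was called under any alternative run. The intervals leave room for changes of these sizes, and a p that misses the threshold does not show that the level was kept.

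Cd200 was not well above background on any array, and so nothing can be said of its change. Its signal was at -8.19 and -7.44 on the NC arrays of the 0.6 set and at -8.22 and -8.28 after miR-365a.

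The second question was what miR-193b did, in the 0.2 set. Of the 6 genes tested, 0 were called, where 1.73% of all genes tested were called higher and 1.17% lower. At an unadjusted limma p under 0.05 there was 1 of these 6 genes, Cd34, where 3827 of all 17849 genes tested were under it. The same test called 1 of the 6, again Cd34, with normexp background correction or with the deposited values. So did the fit over the genes well above background on all 8 arrays, and that with a trended robust variance.

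Cd34 was at -0.83 and -0.41 on the NC arrays of the 0.2 set and at -1.66 and -1.72 on the miR-193b arrays. The log2 difference was -1.07 ± 0.23 (SE, n = 2 and 2, 95% interval -1.62 to -0.52, limma adjusted p = 0.0658, 0.0142 to 0.209 over all alternatives). It was -0.83 between the arrays of slide 1 and -1.31 between those of slides 2 and 3, where slide and transfection cannot be told apart.

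Cd44 was at 3.00 and 3.06 on NC and at 3.16 and 3.06 on miR-193b, a log2 difference of 0.08 ± 0.23 (SE, n = 2 and 2, 95% interval -0.48 to 0.65, limma adjusted p = 0.864). Its other 3 probes gave -0.09, 0.10 and 0.16, none called. The differences were -0.03 ± 0.14 for Cd24a (95% interval -0.38 to 0.31), -0.03 ± 0.14 for Epcam (95% interval -0.36 to 0.30) and -0.11 ± 0.12 for Ly6a (95% interval -0.41 to 0.18). The groups overlapped for these 3 genes, with Cd24a at 1.70 and 1.47 against 1.75 and 1.49, Epcam at 1.48 and 1.31 against 1.49 and 1.37, and Ly6a at 4.89 and 5.12 against 5.08 and 5.16. Prom1 was not well above background on any array of the 0.2 set, at -7.98 to -7.42, and has no fold here.

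**Figure D4:**
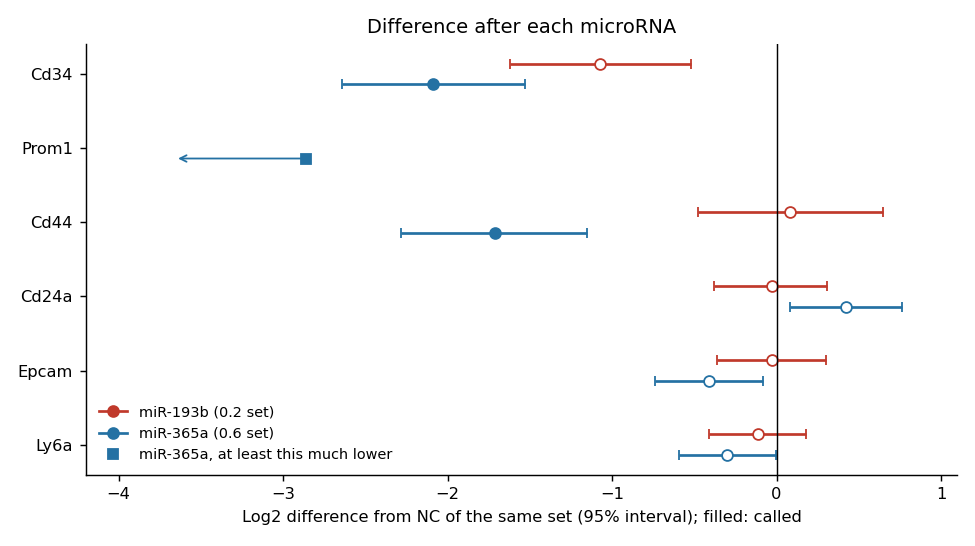
Log2 difference from the NC arrays of the same set after each microRNA, with 95% intervals of the fit (2 arrays per group), filled where called. For Prom1 the square with an arrow is the bound set by the background limit of the processed signal (7.26-fold), and no value is drawn after miR-193b. It holds for that signal only, as the Prom1 log2 difference was -1.49 after normexp background correction and -1.25 in the deposited values. The calls are Cd34, Prom1 and Cd44 after miR-365a, and every interval after miR-193b except that of Cd34 includes 0.

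Whether the microRNAs differed in their effect was tested as the difference between the 2 differences. It was called for 2 of 6 genes, Cd44 and Prom1, where 3.54% of all genes tested were called. For Cd44 the effect of miR-365a was lower than that of miR-193b by a log2 difference of -1.79 ± 0.33 (SE, 95% interval -2.59 to -0.99, limma adjusted p = 0.0446, 0.0138 to 0.144 over all alternatives). That call was lost without a filter on dim probes and on leaving out any 1 array other than NC replicate 3. The other Cd44 probes were not called, at -0.44 ± 0.36 for probe 1 (adjusted p = 0.542), -0.84 ± 0.46 for probe 2 (adjusted p = 0.368) and -1.18 ± 0.31 for probe 3 (adjusted p = 0.0987). Prom1 could be seen to fall only in the 0.6 set, since it was at background in all arrays of the 0.2 set, so its call (adjusted p = 0.0435, 0.0192 to 0.132 over all alternatives and lost under 10 of 14) is not a comparison of measured falls. For Cd34 the difference was -1.02 ± 0.32 (95% interval -1.79 to -0.24, adjusted p = 0.149), which did not pass. That Cd34 difference was smaller after normexp background correction (-0.35) and in the deposited log2 values (-0.21). Over all alternatives it ran from -1.29 to -0.21. The effects on Cd24a (0.45 ± 0.20, adjusted p = 0.274), Epcam (-0.38 ± 0.19, adjusted p = 0.338) and Ly6a (-0.18 ± 0.17, adjusted p = 0.596) were not shown to differ.

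The NC arrays of the 2 amount sets received the same control microRNA, and among the 6 genes tested Cd34 and Prom1 were called between them. Between these sets 15.6% of all genes tested were called, 2066 higher and 721 lower in the 0.6 set, so 74.1% of calls were higher. That share was 62.7% after quantile normalization and 61.0% in the deposited values. Cd34 was at -0.83 and -0.41 in the 0.2 set and at -3.20 and -2.97 in the 0.6 set, 5.54-fold lower (log2 difference -2.47 ± 0.23, SE, n = 2 and 2, limma adjusted p = 0.00420). The fitted difference between these controls was larger than that between miR-365a and its NC arrays (-2.09). The 2 share the NC arrays of the 0.6 set and were not compared by a test. Prom1 went the other way and was at least 3.55-fold higher in the 0.6 set, against that same limit on the arrays of the 0.2 set, and at least 2.30-fold at the lower array (limma adjusted p = 0.00836). Prom1 was tested only through the NC arrays of the 0.6 set, so it could only come out higher there, and its call is a description. Its log2 difference was 1.31 after normexp correction and 1.38 in the deposited values, both smaller than the 3.55-fold bound. Its measured mean in the 0.2 set was -7.80 ± 0.14 (SD, n = 2).

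The other genes were closer between the controls. Epcam was at 1.49 and 1.37 in the 0.2 set and at 0.85 and 1.11 in the 0.6 set, with a log2 difference of -0.45 ± 0.14 (SE, n = 2 and 2, limma adjusted p = 0.0732, 0.0452 to 0.236 over all alternatives), called only with a trended robust variance. The differences of Cd44 (0.32 ± 0.23), Ly6a (0.18 ± 0.12) and Cd24a (0.14 ± 0.14) did not pass either. The other Cd44 probes had the opposite sign, at -0.31, -0.14 and -0.19 for probes 1 to 3, none called. The summed signal of the endothelial markers, relative to the 75th percentile, was 1.26 to 1.72 on the NC arrays of the 0.2 set and 3.56 to 4.52 on those of the 0.6 set. The sum was 3.63 to 4.98 after miR-365a. It moved mainly with 1 gene, Kdr, encoding a receptor for vascular endothelial growth factor, at 0.58 and 0.08 on the NC arrays of the 0.2 set and at 1.72 and 2.08 on those of the 0.6 set. Cdh5, Tek and Emcn were not well above background on any array. Kdr, Esam and Tie1 were well above it on all 8 arrays, Pecam1 on 7 and Cldn5 on 1. The part of these markers in the Cd34 difference was not tested. The leukocyte sum was 9.19 to 10.2 after miR-365a against 6.35 to 8.19 on its NC arrays. It differed mainly through 1 gene, Csf1r, at 1.74 and 1.54 after miR-365a against -0.53 and 0.02 on those NC arrays. The part of these leukocyte markers in the falls was not tested. All arrays of the 0.6 set lie on slide 4, so amount and slide cannot be told apart between the sets.

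Other genes around these proteins were counted in 4 lists. The first held hyaluronan enzymes, CD44 ligands, the proteins that tie CD44 to the cytoskeleton and those that cut or splice it. Beside the counts after miR-365a stand the shares of all genes tested, 7.84% called higher and 8.05% lower, and nothing particular to a list was tested. Of the 17 tested genes of the first list, 3 rose and 2 fell after miR-365a and 12 were not called (median log2 difference 0.30, where that of all genes tested was 0.023). Esrp2, a splicing regulator that favours epithelial exons including those of Cd44, rose by a log2 difference of 0.89 ± 0.15 (SE, limma adjusted p = 0.0157). Hyal1, a hyaluronidase, rose by 0.83 ± 0.18 (adjusted p = 0.0284). Spp1, encoding the CD44 ligand osteopontin, rose by 0.86 ± 0.19 (adjusted p = 0.0297) and was named after its value was seen. Hmmr, encoding another hyaluronan-binding protein that also acts at the mitotic spindle, fell by 0.88 on the log2 scale (SE 0.16, adjusted p = 0.0192), and Adam10, encoding a protease that sheds CD44, fell by 0.58 (SE 0.12, adjusted p = 0.0249). After miR-193b 0 of the 17 were called, with a median of 0.19 (0.049 over all genes), Hmmr at -0.87 ± 0.16 (adjusted p = 0.0504), Esrp2 at 0.77 ± 0.15 (adjusted p = 0.0555), Spp1 at -0.73 ± 0.19 (adjusted p = 0.0943) and Vcan, encoding the hyaluronan-binding proteoglycan versican, at 0.49 ± 0.12 (adjusted p = 0.0953).

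Relatives of the surface markers by family were lower after miR-365a or not called. Of 10 tested, 4 fell (8.05% of all genes did), 0 rose and 6 were not called (median -0.69). Prom2, the other prominin gene, fell by 1.70 on the log2 scale (SE 0.36, limma adjusted p = 0.0281). Slurp1, a secreted protein of the Ly6 family, fell by 1.93 (SE 0.35, adjusted p = 0.0177), and Lypd3, an anchored protein of the same family, fell by 0.80 (SE 0.14, adjusted p = 0.0181). After miR-193b 0 of the 10 were called (median 0.16). The smallest p values were those of Ly6d, a keratinocyte Ly6 gene (0.62 ± 0.18, adjusted p = 0.127), and Lypd3 (0.43 ± 0.14, adjusted p = 0.166). Podxl, the sialomucin relative of Cd34, was at -1.01 ± 0.47 (adjusted p = 0.275) and well above background on only 2 arrays, and Prom2 was at 0.60 ± 0.36 (adjusted p = 0.380).

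The third list held other surface proteins used to mark stem or progenitor cells of skin. Of 18 tested, 2 fell after miR-365a, near the 8.05% of all genes, 0 rose and 16 were not called (median -0.32). Procr, encoding the endothelial protein C receptor, which marks progenitors in several epithelia, was 7.02-fold lower (log2 difference -2.81 ± 0.25, SE, n = 2 and 2, limma adjusted p = 0.00329). Itga6, the laminin-binding integrin subunit by which basal keratinocytes are sorted, fell by 0.80 on the log2 scale (SE 0.14, adjusted p = 0.0171). Tfrc, encoding the transferrin receptor, at -0.42 ± 0.12 (adjusted p = 0.0553), and Itgb4, encoding the partner subunit of Itga6, at -0.55 ± 0.17 (adjusted p = 0.0755), were not called. After miR-193b 0 of the 18 were called (median -0.08), with Itga6 at 0.53 ± 0.14 (adjusted p = 0.105), Itgav at 0.42 ± 0.13 (adjusted p = 0.142), Sdc4 at 0.45 ± 0.21 (adjusted p = 0.279) and Plet1 at -0.76 ± 0.36 (adjusted p = 0.283).

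The last list held partners of EpCAM and CD24. Of 12 tested, 3 rose (7.84% of all genes did), 1 fell, near the 8.05% of all genes, and 8 were not called after miR-365a (median 0.22). Ctnnb1, encoding the β-catenin that carries the signal of the cleaved EpCAM tail, rose by a log2 difference of 0.83 ± 0.11 (SE, limma adjusted p = 0.00752). Psen2, a subunit of the γ-secretase that releases that tail, rose by 0.96 ± 0.14 (adjusted p = 0.00927), and Adam17, encoding a protease of the step before it, fell by 0.89 (SE 0.18, adjusted p = 0.0253). Spint1, an inhibitor of the membrane protease matriptase, rose by 0.67 ± 0.17 after miR-365a (adjusted p = 0.0480) and was 2.32-fold lower after miR-193b (log2 difference -1.21 ± 0.17, adjusted p = 0.0305). It was the 1 gene of 12 called after miR-193b, where 0 rose and 11 were not called (median 0.24). Psen2 (0.43 ± 0.14, adjusted p = 0.149), Adam17 (0.40 ± 0.18, adjusted p = 0.272) and the tetraspanin gene Tspan8 (0.82 ± 0.44, adjusted p = 0.329) were among the uncalled.

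Genes with the most similar profile over the 8 arrays were found by Pearson's r among 12043 named genes well above background on all 8. The 8 values of a profile share slides and normalisation, and r is given as a description. For Cd34 they were Slco3a1 (0.992), an organic anion transporter gene, and Gm8556 (0.989). For Cd44 they were Atp13a3 (0.995), encoding a cation-transporting ATPase, and Gal3st2 (0.984), a sulfotransferase gene. Atp13a3 shared with the brightest Cd44 probe the high level on NC replicate 4, at 1.03 against 0.50 on NC replicate 3. For Cd24a they were Ubr4 (0.994) and Sptan1 (0.989), for Epcam Dse (0.991) and Edem1 (0.983), and for Ly6a Tsc22d4 (0.953) and Trerf1 (0.951).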

How the data were processed

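Per the file headers, Agilent Feature Extraction 10.7.3.1 gave each spot a background-subtracted intensity (its processed signal). A table of log2 values deposited by the authors served as an alternative. Its medians were 7.04 to 7.05, its scale and direction matched the scanner values of the same arrays (r of 0.965 to 0.981), and its background correction is not given in the sources used here. The submitters' processing notes name limma. Control and outlier-flagged spots were left out, log2 signals were centred on each array's 75th percentile, and spots of a probe were averaged. Genes took the name of a current table (27502 probes by accession, 3549 by symbol, 404 by synonym) or of the file (7974).

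A gene was tested if its brightest probe passed the scanner software's well-above-background flag on both arrays of 1 or more of the 4 combinations of transfection and set (17849 genes). Differences were fitted with limma 3.58.1 (R 4.3.3; lmFit, eBayes) on all 8 arrays with terms for set, miR-193b and miR-365a (4 residual degrees of freedom, 2.3 from the prior), adjusted by Benjamini and Hochberg. The fit was tested on simulated data with noise drawn independently for each array and no background limit. That test therefore says nothing of shared slides or dim probes. The number of arrays limits the precision. Where only 1 group passed that flag, a bound is given, with the other group set, per array, at the least signal among flagged-as-above probes or at its own if higher. Up to 4 genes of a list were named by smallest p, and some genes that this rule selects are not given. The surface markers and the lists were chosen with earlier results of these data known. Figures were drawn with Python 3.11.15 and matplotlib 3.10.9.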

Additional observations from a re-analysis of the deposited data

Results flagged for a closer look

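Cd44 stood apart on 1 control array at its brightest probe (probe 4). The gap of NC replicate 4 to the nearest NC array was 0.894 of the range of the 4 NC arrays, past Dixon's limit for 4 values, although these arrays span both amount sets. All 4 Cd44 probes were higher on NC replicate 4 than on NC replicate 3, by 0.52 to 0.77 on the log2 scale. At probes 1 to 3, however, the highest NC array was NC replicate 1, at -0.59, -0.86 and 3.17. NC replicate 4 was at -0.83, -0.92 and 3.13 there. Chance alone passes Dixon's limit in about 1 in 20 groups.

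The fitted effect of miR-365a less that of miR-193b was -1.79 on the log2 scale for Cd44 at its brightest probe, and the other 3 Cd44 probes were not called. For Prom1 the fitted value was -4.08. Prom1 was at background on all arrays of the 0.2 set, so its effect there could not be measured and this value does not show that the effects differed.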

How the results depend on the processing

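After miR-365a Cd34 kept its direction and call under every alternative, and Cd44 kept its direction. Prom1 kept both under every alternative that gave a value. In the main fit Prom1 was tested only because it was well above background on the NC arrays of its set. It could thus be seen only as a fall, and its kept direction is a description. The fit over genes above background on all 8 arrays left Prom1 out, and 2 surface markers were called there after miR-365a. Cd34 after miR-193b was called under 4 alternatives, so the count of surface markers called was 1 after normexp correction, with the deposited values, with genes kept only if above background on all 8 arrays and with a trended robust variance. The difference between the effects on Cd44 lost its call without a filter on dim probes (adjusted p = 0.138) and on leaving out any 1 array except NC replicate 3, and that for Prom1 under 10 of 14 alternatives. The cause of these changes was not tested.

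Over all genes, 517 were called after miR-193b. The count was 1001 after normexp correction (71.1% higher, 59.6% before), 844 with the deposited values, 11 without a filter, 891 among genes above background on all 8 arrays, 1025 with the trended robust variance and 0 with the set fitted alone (3134 at an unadjusted p under 0.05). It was 8 to 276 on leaving out 1 array. After miR-365a it was 2836, 1055 without a filter and 601 to 2866 leaving out 1 array. Between the NC sets it was 2787, 1010 without a filter, 1407 with slide as a random block and 479 to 2387 leaving out 1 array. For the difference between effects it was 632, and 1049 (normexp), 979 (deposited), 0 (no filter, 3489 at an unadjusted p under 0.05), 1070 (all 8 arrays), 1123 (trended robust), 997 (slide block) and 0 to 564 leaving out 1 array.

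Some uncalled values near 0 changed sign. After miR-193b these were Cd44 at probe 1 (-0.09), Prom1 after quantile normalization (-0.0027), and, leaving out 1 array, Prom1, Cd24a, Ly6a and Epcam. The last 4 ran from -0.18 to 0.38, -0.16 to 0.09, -0.23 to 0.0032 and -0.12 to 0.05. Between NC sets Cd44 ran from -0.05 to 0.69 leaving out 1 array, and Ly6a was -0.07 after quantile normalization. For the difference between effects Ly6a was 0.03 after quantile normalization and 9.9e-05 with the deposited values. The Cd44 probes 1 to 3 also had the opposite sign to probe 4 between NC sets. No paired analysis was possible because the replicate numbers follow accession order; slide was fitted as a random block in its place. Dim probes, Prom1 and Cd200 above all, limit what could be measured.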
